A study of Homo sapiens with 8 samples.

Results

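Sterol regulatory element binding proteins (SREBPs) are membrane-bound transcription factors that drive the genes of cholesterol and fatty acid synthesis, and 8 genes that regulate them or move cholesterol were followed in nascent RNA from DLD-1 and HCT116 cells, both human colorectal cancer lines. They were INSIG1, INSIG2, SCAP, SREBF1, SREBF2, STARD4, MYLIP and ABCA1, found by exact gene symbol, and they are 8 of the 18638 gene models in each of the 2 deposited count tables. The genes were chosen for their roles together with a fall of INSIG1 in HCT116 cells that was already known, so the HCT116 comparison helped choose them and its values for them are given as a description, with fold changes and errors but no p, and counts of calls stand there for reference only. All 8 genes passed the filter on low counts in both cell lines, where 17625 models were tested in DLD-1 and 15273 in HCT116.

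The measurements were factory-seq read counts, that is, counts of RNA freed from isolated sites of transcription, in 8 libraries that form 4 groups of 2. DLD-1 cells of genotype mAID-mClover-POLR2A with Tet-OsTIR1 carry a degron on POLR2A, the gene of the largest RNA polymerase II subunit, and were untreated or given auxin at 500 µM for 14 h, after doxycycline for 24 h to induce TIR1, the plant protein through which auxin triggers loss of a tagged protein. HCT116 cells all carried the degron on TOP2A, a type II topoisomerase gene, and were untreated TOP2A-mAID cells or TOP2B-/- TOP2A-mAID cells (written TO2B-/- in the labels), labelled as a knockout of the other such gene. The TOP2B-/- libraries are titled as controls but their treatment field reads 14 h of auxin, so they were grouped by genotype. They are also listed with auxin at 500 µM and doxycycline for 24 h. Genotype, auxin and doxycycline therefore cannot be told apart, and TOP2A protein, which carries the degron, was not measured. Titles call all libraries asynchronous, while the protocol mentions sorting of G1 cells without saying for which libraries. The sources do not say whether control cells had doxycycline, whether each genotype is 1 clone, or whether the 2 libraries of a group came from separate cultures, so p-values measure the spread between libraries, which may be technical.

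SREBP precursors sit in the endoplasmic reticulum bound to SCAP, the escort protein that senses cholesterol. When sterols are plentiful, the INSIG proteins hold SCAP there. When sterols run low, SCAP carries SREBPs to the Golgi, where proteases release the active factor, which then raises transcription of INSIG1, SREBF2, STARD4 and the cholesterol synthesis genes. A separate sterol sensor, the liver X receptor, acts when cholesterol is high and drives ABCA1, the cholesterol exporter, and MYLIP, a ubiquitin ligase that limits the uptake of cholesterol.

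Library totals fell from 62626875 and 36906755 counts in the DLD-1 controls to 14183633 and 10739622 after auxin, and lay between 32129400 and 36491540 in HCT116. A background density was set as the median count per kb of 3111 long models that were among the least covered in the controls of the other cell line. Spread over all models, it came to 2.24% and 9.02% of the counts in the DLD-1 controls, 39.5% and 59.6% in the auxin libraries, and 0.256% to 3.03% in HCT116. Counts were expressed relative to the library size (CPM) and scaled with the TMM factors of edgeR. The POLR2A gene itself gave 281 and 179.9 CPM in DLD-1 controls and 159 and 108 after auxin, which does not check loss of the protein, and TOP2B gave 186 and 192 CPM against 135 and 132 in TOP2B-/- cells, so reads over this model do not show which part of the gene is lost. Summed epithelial markers gave 7403 and 5658 CPM in DLD-1 controls against 5356 and 3854 after auxin, where 3 of 10 were called lower (CDX2, KRT18 and CDH17) and 1 higher. Over all models 35.0% were called lower and 32.2% higher. The marker called higher, CDX1, stood at 0.47 and 0.88 times background after auxin. With background subtracted, 1 epithelial marker was called lower and 4 higher, with a median log2 fold change of 0.14. In HCT116 the epithelial markers gave 3378 and 4244 CPM against 2755 and 2451, most of it KRT8 and KRT18. CDH1 was called lower among 8 tested and none higher, beside 1.66% of all models called lower and 1.75% higher. DESeq2 called 4 lower, background-subtracted counts 3, and 4 were lower at an unadjusted p under 0.05 in edgeR. VIL1, CDH17 and GPA33 had positive fold changes that were not called, at 1.04 to 1.75 times background in TOP2B-/- cells. The intestinal markers CDX1 and LGALS4 were too low to test. Of 8 markers of blood, stromal and endothelial cells, 6 were called higher after auxin, and their sum went from 19.4 and 42.3 to 197 and 199.7 CPM. Their median log2 fold change was 2.25. Once background was subtracted the median was 0.06, with 3 still called higher and 1 lower. The lower one was PDGFRB, which stood at 0.89 and 0.81 times background after auxin. The endothelial marker PECAM1 gave 97.6 and 72.5 CPM of the sums after auxin, against 1.65 and 7.13 in the controls, and stood at 4.81 and 2.49 times background there. In HCT116 none of the 6 tested was called by edgeR (1 lower at an unadjusted p under 0.05, and 1 by DESeq2) and their sum was 52.4 and 52.2 against 37.2 and 36.7 CPM, most of it COL1A1. The part of these differences in the results on sterol genes was not tested.

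The SREBP genes host microRNAs in their introns, and 2 of them are known to act on ABCA1, another of the 8 genes, so their mature sequences are shown. The RefSeq sequences (GRCh38.p14) place miR-33a-5p on the plus strand at chr22:41900949-41900969 within SREBF2 and miR-33b-5p on the minus strand at chr17:17813897-17813916 within SREBF1. Capitals mark the seed, bases 2 to 8.
hsa-miR-33a-5p: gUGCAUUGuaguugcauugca
hsa-miR-33b-5p: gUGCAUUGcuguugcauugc
Both have the seed UGCAUUG. SREBF1 also holds miR-6777 and MYLIP holds miR-4639, whose mature forms have other seeds. The count tables give a counted length shorter than the span of the model for SREBF1 by 162 bases, for SREBF2 by 69 and for MYLIP by 69, and these equal the summed lengths of the microRNA hairpins inside each gene. The other 5 genes, with no hairpin in the RefSeq table, were counted over their whole span. Reads on the hairpins therefore appear to be outside the values given here for the hosts, and the processed microRNAs were not measured.

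Promoter sequences are shown for INSIG1, SREBF2 and STARD4, named above as genes that SREBPs raise, each from 250 bases before to 50 after a RefSeq start in GRCh38.p14. Capitals mark a sterol regulatory element (SRE, searched as TCACNCCAC), an E-box (CACGTG), which SREBPs can also bind, and CCAAT, the letters bound by the SREBP partner NF-Y, on either strand. INSIG1 is read on the plus strand at chr7:155297628-155297927, SREBF2 on the plus strand at chr22:41832855-41833154 and STARD4 on the minus strand at chr5:111512486-111512785.
INSIG1: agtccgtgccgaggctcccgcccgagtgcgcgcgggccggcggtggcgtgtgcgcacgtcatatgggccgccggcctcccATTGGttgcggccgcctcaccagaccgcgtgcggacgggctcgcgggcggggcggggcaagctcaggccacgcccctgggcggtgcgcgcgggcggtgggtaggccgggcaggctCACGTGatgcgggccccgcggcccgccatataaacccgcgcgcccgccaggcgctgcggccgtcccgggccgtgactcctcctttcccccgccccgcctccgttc
SREBF2: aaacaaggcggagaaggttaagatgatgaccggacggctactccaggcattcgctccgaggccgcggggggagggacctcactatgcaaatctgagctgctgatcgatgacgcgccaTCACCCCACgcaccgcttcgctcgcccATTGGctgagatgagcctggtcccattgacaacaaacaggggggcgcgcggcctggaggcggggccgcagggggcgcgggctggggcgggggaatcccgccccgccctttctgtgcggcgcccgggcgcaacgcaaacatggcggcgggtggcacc
STARD4: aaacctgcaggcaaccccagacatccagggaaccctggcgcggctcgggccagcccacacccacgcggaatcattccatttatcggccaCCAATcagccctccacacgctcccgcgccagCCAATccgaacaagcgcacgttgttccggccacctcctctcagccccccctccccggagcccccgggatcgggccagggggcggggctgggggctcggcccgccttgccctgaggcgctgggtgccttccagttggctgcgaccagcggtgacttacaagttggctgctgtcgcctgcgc
The searched SRE letters stood in the SREBF2 promoter alone among these genes, with the first base at -133 from the start, and in 1.13% of 35116 RefSeq promoters. CCAAT lay at -106 in SREBF2, -170 in INSIG1, and -161 and -130 in STARD4, and is found in 34.6% of promoters. INSIG1 held an E-box at -55, within chr7:155297803-155297848. Positions are from the start used for the window, which can differ from that of the counted model. The INSIG1 model starts at chr7:155297776, so this E-box lies inside it. An E-box also stood at -58 in SCAP and at -147 in ABCA1, shown with 20 bases on each side from the minus strand of chr3:47475974-47476019 and chr9:104928277-104928322, and 7.26% of promoters hold one.
SCAP: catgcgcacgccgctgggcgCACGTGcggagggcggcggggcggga
ABCA1: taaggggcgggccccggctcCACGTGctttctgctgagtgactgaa
Neither the SRE letters nor an E-box occurred in the windows of INSIG2, SREBF1, STARD4 or MYLIP, where STARD4 and MYLIP held CCAAT. The GC box letters (GGGCGG), which occurred in every member's window, are in 45.0% of promoters and overlap none of the other motifs shown. A match of letters is a description of the window only.

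INSIG1 was the most transcribed of the 8 genes per kb in HCT116 controls and only the fourth in DLD-1 controls. In HCT116 controls it gave 28.4 ± 2.56 CPM per kb (SD, n = 2), above SREBF1 at 20.5 ± 3.13, with no overlap of libraries. STARD4 followed at 5.29 ± 0.012 and SREBF2 at 4.75 ± 0.20. INSIG2 was at 1.44, MYLIP and SCAP overlapped at 1.18 and 1.16, and ABCA1 was lowest at 0.203 CPM per kb. In DLD-1 controls the order was led by SREBF1 at 8.80 ± 1.95, then SREBF2 at 4.68 ± 0.71 and STARD4 at 4.12 ± 0.20, which overlapped. INSIG1 stood at 3.25 ± 0.079, MYLIP at 3.0 ± 0.071, SCAP at 1.77 and INSIG2 at 1.73, the last pair overlapping, and ABCA1 at 0.063. On this scale the mean of SREBF2 was much the same in both lines, those of INSIG1 and SREBF1 were higher in HCT116, and that of MYLIP was higher in DLD-1. The scale itself differs, since the DLD-1 controls had TMM factors of 0.776 and 0.828, set together with the auxin libraries. The HCT116 controls had factors of 1.01 and 0.97. The lines were counted and scaled in separate tables and differ in genotype, so these levels are set side by side without a test.

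**Figure D1:**
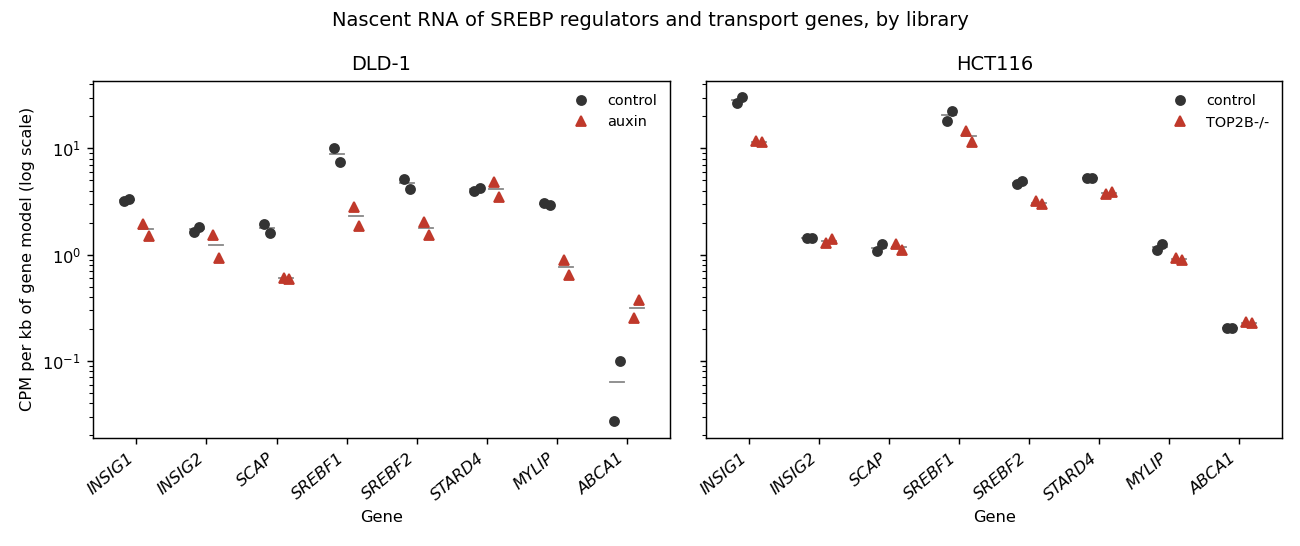
CPM per kb of gene model on a log axis for the 8 genes in each library, with DLD-1 (control circles, auxin triangles) on the left and HCT116 (control circles, TOP2B-/- triangles) on the right, and grey bars for the mean of 2 libraries. INSIG1 stands at 28.4 in HCT116 controls and 11.6 in TOP2B-/- cells, against 3.25 in DLD-1 controls, and ABCA1 is lowest in all groups.

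In the TOP2B-/- HCT116 cells, INSIG1 differed most from TOP2A-mAID controls, with a log2 fold change of -1.29. SREBF1 at -0.65, SREBF2 at -0.62, STARD4 at -0.48 and MYLIP at -0.38 were lower too. INSIG2 was at -0.09, SCAP at 0.02 and ABCA1 at 0.18. Those called lower by edgeR were INSIG1, SREBF2 and STARD4. By edgeR's quasi-likelihood test 3 of the 8 genes were called lower and none higher (5 lower and 1 higher at an unadjusted p under 0.05, and 5 lower by DESeq2), beside 1.66% of all tested models called lower and 1.75% called higher. With either TOP2B-/- library left out, no gene of the series was called, although 1282 and 2224 models had an unadjusted p under the threshold in these edgeR fits. Because the contrast helped choose the genes, the counts are printed for reference and nothing is read from them.

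INSIG1, whose protein retains SCAP and which is itself an SREBP target, is encoded on chromosome 7 (NM_005542, chr7:155297776-155310235, hg38, plus strand). It gave 331 and 377 CPM in the controls and 145 and 144 in TOP2B-/- cells. The libraries of the groups lay far apart, and the log2 fold change was -1.29 ± 0.076 (SE), which is 2.45-fold lower. It was the 39th lowest of the 15273 log2 fold changes, a description only, since this fall was known when the genes were chosen. INSIG2 (NM_016133, chr2:118088474-118110021, plus strand), the paralog whose protein also retains SCAP, gave 30.98 and 31.01 CPM against 27.8 and 30.5. The difference of INSIG2 was -0.09 ± 0.080 on the log2 scale, about the size of its error. The ratio of INSIG1 to INSIG2 per kb was thus 18.5 and 21.0 in the controls and 9.03 and 8.14 in TOP2B-/- cells.

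SREBF2 (NM_004599, chr22:41833079-41907308, plus strand) encodes SREBP2, the form that favours cholesterol genes. It gave 342 and 363 CPM in the controls and 238 and 220.1 in TOP2B-/- cells, a log2 difference of -0.62 ± 0.061. SREBF1 (NM_004176, chr17:17811349-17837011, minus strand) encodes SREBP1, which favours fatty acid genes, and its model shares 103 bases with RAI1 on the other strand, whose reads cannot be told apart unless strand was used. It gave 468 and 582 CPM against 374 and 293, a difference of -0.65 ± 0.17, with a larger error than for SREBF2 and the 2 control libraries well apart. The ratio of SREBF1 to SREBF2 per kb overlapped between groups, at 3.96 and 4.63 in controls and 4.55 and 3.85 in TOP2B-/- cells. SCAP (NM_012235, chr3:47413694-47475955, minus strand) overlapped too, with 67.4 and 77.6 CPM against 78.2 and 69.1 and a difference of 0.02 ± 0.10.

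**Figure D2:**
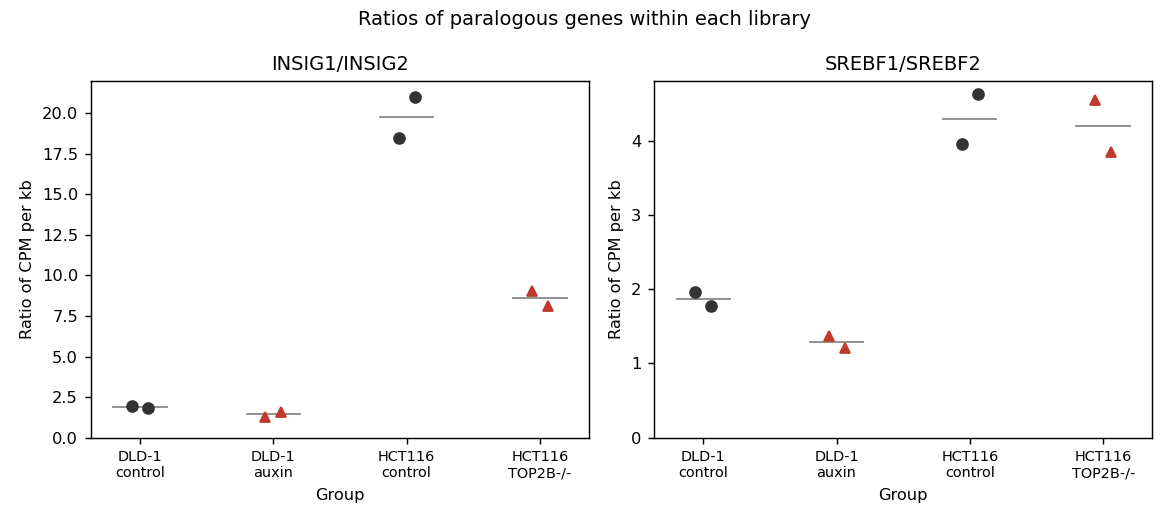
Ratio of CPM per kb within each library for INSIG1 over INSIG2 (left) and SREBF1 over SREBF2 (right) in the 4 groups, on linear axes from 0, with grey bars for the mean of 2 libraries. The INSIG ratio is 18.5 and 21.0 in HCT116 controls and 9.03 and 8.14 in TOP2B-/- cells, while the SREBF ratio overlaps between these groups.

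STARD4 (NM_001308059, chr5:111496035-111512597, minus strand), a cytosolic sterol carrier, gave 87.5 and 87.8 CPM in the controls and 61.6 and 64.3 in TOP2B-/- cells. Its libraries were close together within each group and the log2 difference was -0.48 ± 0.044. MYLIP (NM_013262, chr6:16129086-16148247, plus strand) gave 21.3 and 24.0 CPM against 17.7 and 17.2, a difference of -0.38 ± 0.11. ABCA1 (NM_005502, chr9:104781003-104928246, minus strand) was the single gene of the 8 above both controls, with 30.1 and 29.8 CPM against 34.3 and 33.4, a difference of 0.18 ± 0.063. In all, 6 of the 8 genes had both TOP2B-/- libraries below both controls, beside 27.6% of all models, and 1 had both above, beside 27.6%. The median of the 8 log2 fold changes was -0.43, beside 0.03 over all models tested, and the medians of the members' own chromosomes lay between -0.05 and 0.10. Because this contrast helped choose the genes, these shares and medians are a description only.

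In auxin-treated DLD-1 cells, 5 of the 8 genes fell relative to the rest of the library on unsubtracted counts, with SREBF1 at 26.4% and MYLIP at 25.7% of control. ABCA1 was called higher although its counts did not exceed background. With background subtracted, 4 were called lower, INSIG1 no longer among them, and the fall of SREBF1 was smaller. The count of 5 lower and 1 higher stands beside 35.0% of models called lower and 32.2% called higher by edgeR. In this comparison relative scaling matters: with library totals alone the median log2 fold change of all models moved from -0.06 to 0.57, the calls over all models went from 5678 higher and 6177 lower to 7544 higher and 3377 lower, and those among the 8 genes to 2 higher and 4 lower. After background was subtracted, the median of all models was -0.16. With 1 auxin library left out, 1 of the 8 genes (without replicate 1) or 2 (without replicate 2) were called, among 2554 and 3296 models.

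SREBF1 gave 261 and 190.3 CPM in the controls and 71.9 and 47.4 after auxin, so that both auxin libraries were low. The log2 fold change was -1.92 ± 0.29 (adjusted p = 0.0090 by edgeR's quasi-likelihood test). SREBF2 gave 385 and 309.6 CPM against 151 and 114, a fold change of -1.39 ± 0.23 (adjusted p = 0.011). Both calls were lost with either auxin library left out, at adjusted p from 0.054 to 0.063. SREBF1 and SREBF2 remained lower after background was subtracted, at -0.91 ± 0.16 and -0.43 ± 0.11, both smaller than on the unsubtracted counts. The SREBF1 to SREBF2 ratio per kb was 1.96 and 1.78 in controls and 1.37 and 1.21 after auxin.

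SCAP gave 119.9 and 100.2 CPM against 37.5 and 37.0 after auxin. Its fold change was -1.56 ± 0.18 on the log2 scale (adjusted p = 0.0049), and -1.52 ± 0.14 after subtraction, though the counts after auxin were 2.12 and 1.46 times background. The call was lost without auxin replicate 1, at adjusted p = 0.053. MYLIP gave 58.5 and 56.6 CPM against 17.2 and 12.4 and changed by -1.96 ± 0.24 (adjusted p = 0.0055), and by -1.60 ± 0.29 after subtraction. MYLIP was 3.17 and 1.59 times background after auxin, and it was the gene of the 8 whose call held in every fit that left out a library.

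INSIG1 gave 39.7 and 41.1 CPM in the controls and 24.4 and 18.5 after auxin, lower in both auxin libraries. INSIG1 changed by -0.91 ± 0.22 (adjusted p = 0.026), but this call depended on the scaling. After background subtraction, with library sizes and TMM factors taken again, the change was 0.03 ± 0.14 (adjusted p = 0.84). Subtraction took INSIG1 counts from 1931 and 1257 to 1916 and 1221 in controls. After auxin they went from 421 and 255 to 360 and 185, a larger relative loss, so the move came with the new scaling. On library totals alone the change was -0.28 ± 0.21 (adjusted p = 0.29), and the call was lost without either auxin library. INSIG2 gave 35.6 and 39.2 CPM against 32.8 and 20.1, a difference of -0.50 ± 0.29 (adjusted p = 0.18) that became 0.26 ± 0.26 after subtraction. The ratio of INSIG1 to INSIG2 per kb was 1.93 and 1.82 in untreated cells against 1.29 and 1.60 with auxin, and 1.95, 1.86, 1.35 and 2.06 once background was subtracted, so that its groups then overlapped.

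STARD4 was the gene of the 8 whose libraries overlapped between the groups in DLD-1 cells. It gave 66.0 and 70.6 CPM in the controls and 80.4 and 57.8 after auxin, and its log2 fold change was 0.02 ± 0.22 (adjusted p = 0.95). After background was subtracted it was 1.16 ± 0.11 higher (adjusted p = 0.0040), and 0.65 ± 0.20 higher on library totals alone (adjusted p = 0.048), where the median of all models was itself 0.57. STARD4 counts stood 17.1 and 8.57 times above background in the auxin libraries, the highest of the 8 genes. With background subtracted, 4 of the 8 genes, SCAP, SREBF1, SREBF2 and MYLIP, were called lower and STARD4 higher, beside 27.4% of models called lower and 21.9% higher.

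ABCA1 gave 3.97 and 14.6 CPM in the controls and 37.7 and 54.7 after auxin, and it was called 2.32 ± 0.67 higher (adjusted p = 0.035). Its reads were, however, 1.07 and 1.04 times the background density in the controls and 0.90 and 0.91 times after auxin. The models used to set that density had quartiles between 0.68 and 1.33 times it in these libraries, so ABCA1 transcription was not detectable above background in DLD-1, and the call was also lost without either auxin library. In HCT116 the ABCA1 counts were 13.3 times background in control 1, and 21.3 and 8.72 times in the TOP2B-/- libraries. Control 2 gave 88.0 times, but there the models that set the density had quartiles of 0 and 6.86 times it, so this multiple is uncertain. In all, 6 of the 8 genes had both auxin libraries below both controls, beside 46.3% of models, and ABCA1 had both above, beside 44.7%. The chromosome medians of the members lay between -0.35 and 0.05.

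**Figure D3:**
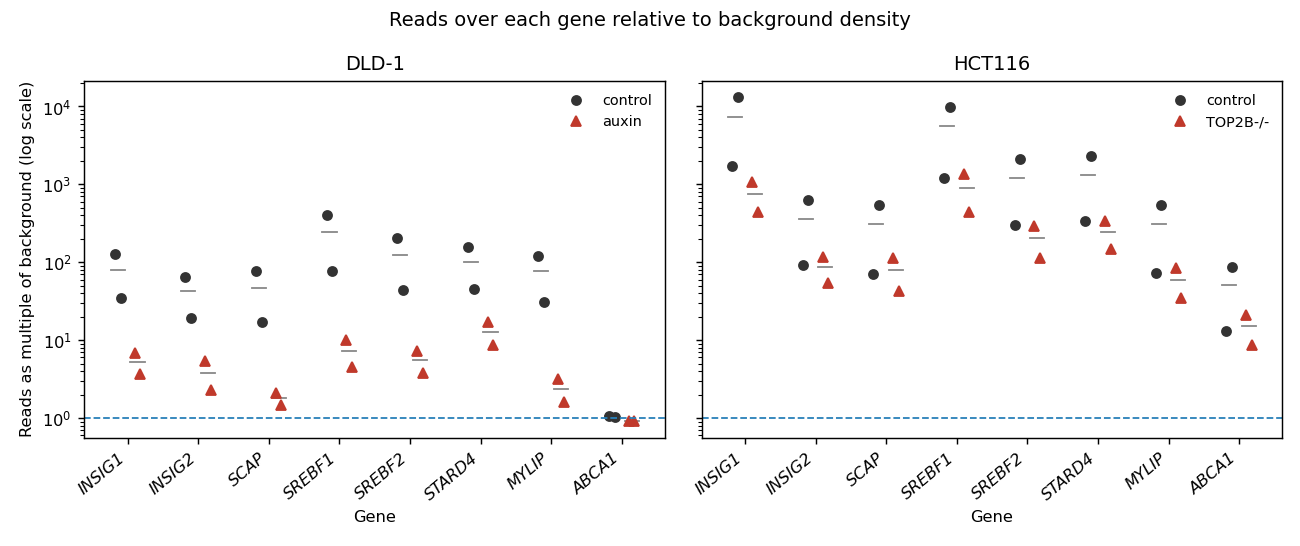
Reads over each gene as a multiple of the background density of its library, on a log axis with a dashed line at 1, for DLD-1 (left) and HCT116 (right), with circles for controls, triangles for auxin or TOP2B-/- libraries, and grey bars for means. ABCA1 lies at 0.90 to 1.07 in DLD-1, and SCAP falls to 2.12 and 1.46 after auxin.

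**Figure D4:**
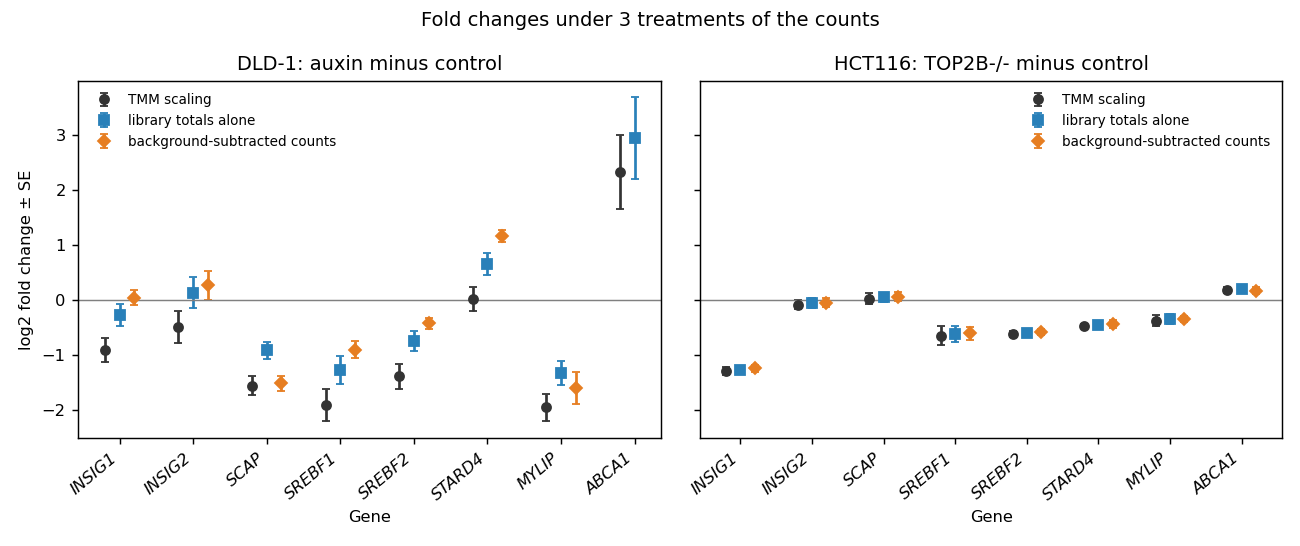
The log2 fold change of each gene with its SE on 3 treatments of the counts, TMM scaling (circles), library totals alone (squares) and background-subtracted counts (diamonds), in DLD-1 (left) and HCT116 (right). In DLD-1 INSIG1 goes from -0.91 to 0.03 and STARD4 from 0.02 to 1.16 on subtraction, the ABCA1 value on subtracted counts is not drawn because its counts after auxin are 0, and the HCT116 values of the 3 treatments lie close together.

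The rest of the sterol machinery was taken from 5 lists of pathway genes that hold none of the 8 genes. Their counts in DLD-1 stand beside the 35.0% of all models called lower and 32.2% called higher, or 27.4% and 21.9% after background was subtracted, and those in HCT116 beside 1.66% and 1.75%. The lists were chosen with earlier results of these data known, so the HCT116 counts of calls are for reference only. With a replicate block, edgeR called no model in HCT116. Of 17 genes for SREBP processing and turnover, 9 fell in DLD-1 by edgeR and none rose (nor at an unadjusted p under 0.05 or by DESeq2), with a median log2 fold change of -0.69 beside -0.06 over all models. FAF2, which helps pull ubiquitinated proteins from the endoplasmic reticulum, changed by -1.67, RNF145, a ubiquitin ligase that acts on SCAP, by -1.64, and MBTPS2, a protease that frees SREBPs, by -1.38. MBTPS2 stood at 1.46 and 0.89 times background after auxin and was not called once background was subtracted. After background was subtracted, 2 of these 17 were lower and 7 higher, with a median of 0.03. In HCT116 none of the 17 was called by edgeR in either direction (1 lower at an unadjusted p under 0.05, and 1 lower by DESeq2) and the median was -0.06, where the 3 lowest, AUP1, MBTPS1 and SEC24A, were between -0.16 and -0.11.

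Of 19 genes of cholesterol uptake and transport, 9 fell and 3 rose in DLD-1, with a median of -0.72, and 8 and 3 after background was subtracted. Among those 8, VLDLR (0.97 and 0.99 times background after auxin) and GRAMD1A (0.79 and 0.79) had counts of 0 left by subtraction. GRAMD1A was at 0.44 and not called before it. The sterol sensor OSBP changed by -1.70, while the lysosomal sterol carrier NPC2 rose by 0.98 and GRAMD1C by 1.47. GRAMD1B was called higher at 2.39, with counts of 0.88 and 0.94 times background after auxin. In HCT116, 3 were called lower and 1 higher by edgeR, 7 and 1 by DESeq2 and 7 and 1 after subtraction. OSBPL2, of the oxysterol binding protein family, gave 122 and 134 CPM in controls against 70.8 and 65.7, a log2 difference of -0.91 ± 0.072, and the receptor LRP8 was called higher at 0.45.

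Of 17 genes of liver X receptor action and of cholesterol export or storage, 8 fell and 5 rose in DLD-1, with a median of -0.68, and after subtraction 6 and 3, with a median of -1.14. That median includes RXRA (0.61 and 0.55 times background after auxin), NR1H2 and ABCG1, whose subtracted fold changes rest on counts of 0. It therefore does not show a deeper fall. NR1H2, which encodes liver X receptor beta, changed by -2.89, the corepressor NCOR1 by -1.70 and RXRB by -1.69. After auxin NR1H2 stood at 0.90 and 0.78 times background and RXRB at 1.32 and 0.56, and RXRB was not called after subtraction. APOE was called higher at 3.12 and APOC1 at 2.02, both on few counts, and ABCG1 at 1.61, with counts of 0.88 and 0.81 times background after auxin. In HCT116, 15 of the list were tested and 1 was called by edgeR, NCEH1 at 0.34, while DESeq2 called 3 higher and 1 lower. SOAT1, the enzyme that esterifies cholesterol for storage, was at 0.38 and not called, and ABCA7 and CYP27A1 were at -0.61 and -0.59, also not called.

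Of 21 cholesterol synthesis genes, 10 were called lower and none higher in HCT116 by edgeR (18 lower and none higher by DESeq2 and at an unadjusted p under 0.05) and the median was -0.59, beside 0.03 over all models. As for the other lists, these HCT116 counts are for reference only. HMGCS1, which makes HMG-CoA, gave 342 and 360.5 CPM in controls and 138 and 138 in TOP2B-/- cells, a log2 difference of -1.35 ± 0.045. MVD was at -1.29 and not called, and IDI1 was at -0.95. In DLD-1, 7 of the 21, a share near that of all models, fell and none rose by edgeR (none at an unadjusted p under 0.05, and 1 by DESeq2), with a median of -0.59, but after subtraction 2 were lower and 10 higher, with a median of 0.41. SQLE and HMGCS1 changed by -1.45 and -1.41 there, which became -0.49 and -0.32 after subtraction. Fatty acid synthesis genes had a median of -0.31 in HCT116, with 4 of 15 called lower and none higher by edgeR, 9 and 2 by DESeq2, and 8 and 2 after subtraction or at an unadjusted p under 0.05. ACSS2, which makes acetyl-CoA from acetate, was at -2.01 ± 0.040, the phosphatidate phosphatase LPIN1 at -0.89 and FASN at -0.76, not called. ME1, the malic enzyme, was at 0.39 and the elongase ELOVL6 at 0.32, neither called. In DLD-1, 5 of 16, again near the share of all models, fell and 3 rose, among them ME1 at -2.21, ELOVL6 at -1.60, FADS1 at 1.52 and FADS2 at 0.94, with a median of -0.28 that became 0.26 after subtraction. ELOVL6 stood at 1.25 and 0.98 times background after auxin and FADS2 at 1.60 and 1.23, and neither was called after subtraction. ELOVL5 was called higher at 2.46, with counts of 1.06 and 1.08 times background after auxin.

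**Figure D5:**
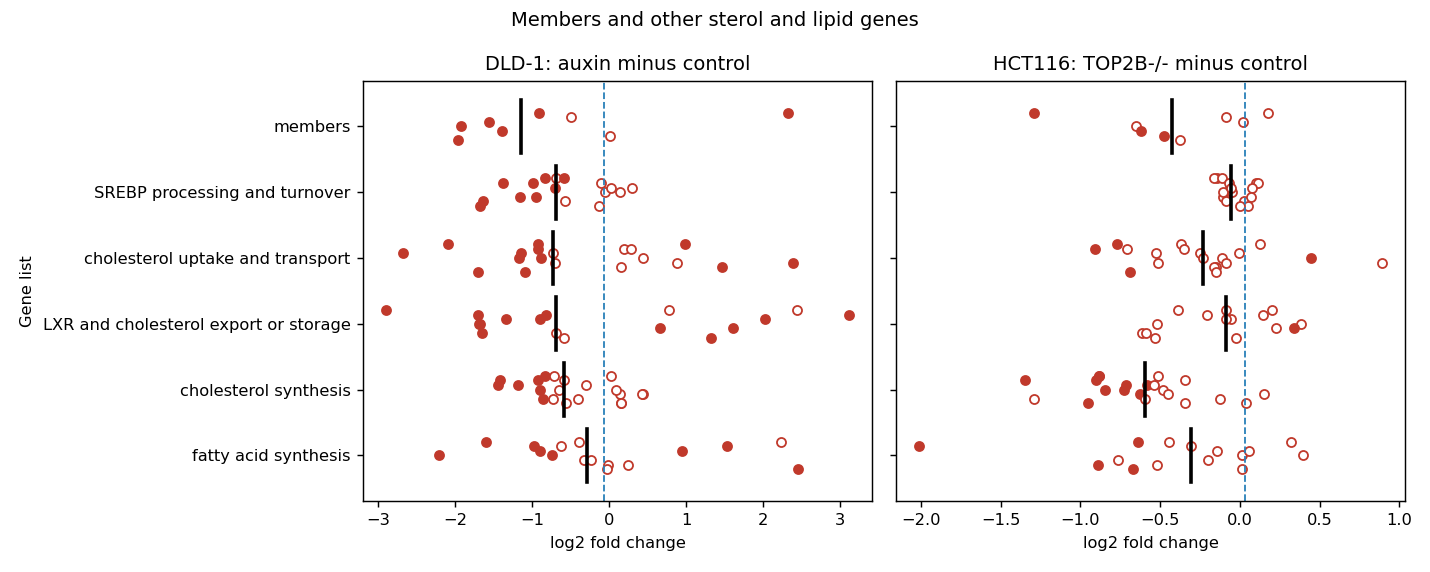
The log2 fold changes of the 8 genes (top row) and of the genes of 5 pathway lists in DLD-1 (left) and HCT116 (right), where filled points were called by edgeR, black bars are list medians and the dashed line is the median of all models. In HCT116 the cholesterol synthesis genes have a median of -0.59 and the SREBP processing genes one of -0.06.

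Across the 8 libraries, after the mean of each cell line was subtracted from log2 CPM, the genes most like INSIG1 of 15204 were CXADR, SYT8, GZF1, PGPEP1 and STK4, with Pearson r from 0.981 to 0.985. All 5 were lower in both comparisons, from -0.39 to -2.46 in HCT116 and from -0.20 to -1.10 in DLD-1. That direction follows from the choice, since INSIG1 itself was lower in both. HMGCS1 was 12th at 0.976 and ACSS2 was 18th at 0.974. Among the 8 genes, SREBF1 and SREBF2 were the most alike at r = 0.99, and STARD4 and SCAP were at -0.02. These values are a description over libraries that share depth and background with their group.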

How the data were processed

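Raw read counts per RefSeq gene model, exons and introns together, were deposited by the authors in 1 table for each cell line; their processing notes name STAR, DESeq2 and hg38, and versions, counting settings and use of strand were not given in the sources used here. The deposited comparison tables hold fold changes, p-values and normalized values of listed genes and were not used. The paper supplied describes another experiment. Members and lists were chosen with earlier results of these data known. Each cell line was fitted on its own (4 libraries, 2 residual degrees of freedom) in edgeR 4.0.16 (R 4.3.3), using filterByExpr, TMM and its quasi-likelihood test, with Benjamini-Hochberg adjustment over all tested models and a threshold of 0.05. SE is the fold change divided by the square root of F. Levels are CPM per kb of span.

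The background was the median count per kb of models of at least 5000 bp in the lowest 20% of the other line's controls, chromosome Y left out. As an alternative it was subtracted by length, and library sizes and TMM factors were then taken again from the remaining counts. Other alternatives were DESeq2 1.42.0, library totals alone, no count filter, a replicate block and each library left out. The fits were tested on simulated data. Genes named were the 8 members, from each list the 3 with the largest change in each direction (called ones in DLD-1, by size in HCT116), and the 5 most like INSIG1. Some genes that this rule names are not reported here. Figures were drawn with matplotlib 3.10.9.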

Additional observations from a re-analysis of the deposited data

How the results depend on the processing

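The HCT116 calls moved most. DESeq2 called 3145 models and 5 of the 8 genes, background-subtracted counts 2395 and 5, and the replicate block 0 and 0 (edgeR, with 2177 models at an unadjusted p under 0.05), beside 521 and 3. Leaving out one library gave 0 to 1783 models and 0 to 3 of the 8 genes, the lowest without either TOP2B-/- library. Same-numbered libraries deviated in opposite ways in HCT116 (r = -0.82 over 15273 models), so a crossed block, chosen after seeing the data, was also fitted and called 1808 models. In DLD-1 the deviations correlated at 0.56 over 2 pairs, which share only a number, and the replicate block called 12963 models and the same 6 members. Leaving out one library in DLD-1 gave 2554 to 12754 models and 1 to 6 of the 8 genes, the lowest without an auxin library. Direction turned in DLD-1 for INSIG1 (0.034), INSIG2 (0.26) and ABCA1 (-6.32, on counts of 0 after auxin) with background subtracted, for INSIG2 on library totals alone (0.13), and for STARD4 under the replicate block (-0.000317) and with one library left out (-0.15 to 0.22). In HCT116 SCAP went from -0.11 to 0.11 with one library left out. The cause was not tested. The counted length in place of the span left every level within its spread. Depth after auxin and its background share limit what can be detected in DLD-1.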
